A study of Bos taurus and Bos indicus with 12 samples.

Results

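The genes described here are 40 genes of the cell cycle and of DNA replication, chosen by name as a module. No value entered the rule, but earlier results of these data were known when the genes were chosen. They comprise 15 genes of DNA replication, 21 of mitosis, and 4 that are used in both or are general proliferation markers. Of the 40, 35 had at least 1 probe set by gene symbol, 47 probe sets in all, among 24016 probe sets tested and 9155 genes with a symbol. MCM2, KIF11, TOP2A, SMC2 and MKI67 were not matched to a probe set by symbol and were not analysed here. For each gene the probe set with the highest mean over the 12 arrays was taken, which left 14 replication genes, 18 mitosis genes and 3 others.

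The values came from the skin of 12 female cattle, each on its own Affymetrix bovine array, in 4 groups of 3 animals. Tick-naive Holstein-Friesian animals were 12 months old and had never met the cattle tick Rhipicephalus microplus, and tick-naive Brahman animals were 18 months old. Infested Holstein-Friesian and infested Brahman animals were 6 months old, had been through repeated heavy challenges with that tick, and were biopsied at the places where larvae had attached. Brahman cattle, an indicine breed, are known to resist this tick better than taurine dairy breeds such as the Holstein-Friesian. Within each breed infestation and age cannot be told apart, and only the infested groups were of 1 age. The biopsies held the whole thickness of the skin, so in such samples fewer dividing cells and less RNA per cell cannot be told apart.

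Before a cell divides, origins of replication are licensed by CDC6 and the MCM helicase, the helicase opens the DNA, and the sliding clamp PCNA tethers the polymerases while ribonucleotide reductase and thymidylate synthase supply the nucleotides. Cyclins with CDK2 and CDK1 drive entry into S phase and mitosis, the condensins compact the chromosomes, and the spindle checkpoint proteins BUB1, BUB1B and MAD2L1 hold the anaphase-promoting complex back until each chromosome is attached. In skin the dividing cells are mainly basal keratinocytes and the matrix cells of growing hair follicles, beside immune and stromal cells that proliferate in a wound.

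Values are RMA signals on the log2 scale, and a difference between groups is a difference of log2 means with its standard error (SE). The SE is from limma, which pools the spread over the 12 arrays and adds a prior, so a gene has the same SE in each breed. An adjusted p is from limma with Benjamini-Hochberg adjustment over all 24016 probe sets, and a gene is said to pass below 0.05. The skin keratin genes KRT5 and KRT14 stood at 13.75 to 14.11 and 14.22 to 14.67 in the 12 arrays, so the defining keratins of the labelled tissue were present. An RNA integrity index, the mean 5′ minus 3′ signal of 5 control transcripts, ran from -1.39 to -0.82 in the 6 naive arrays. It was -2.73 in infested Holstein-Friesian 1, and -4.91, -2.56 and -2.07 in infested Brahman 1, 2 and 3, all below the naive arrays. Infested Holstein-Friesian 2 and 3 stood at -0.75 and -1.23, so in that breed 1 of 3 infested arrays was lower than the naive ones. In Brahman animals every infested array was lower than every naive one. With the index as a covariate, infestation and RNA integrity therefore cannot be told apart in Brahman animals. A Brahman call lost in that fit does not decide between them. CDC6, CCNE2, CENPA, SMC4 and CCNA2 lay below the 40 percent quantile of mean signal (6.07), and the other 30 lay above it.

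In Holstein-Friesian skin none of the 35 genes passed between infested and naive animals, where 5.02% of all probe sets did (2.68% higher and 2.34% lower). Without adjustment 0 were higher and 6 were lower at p under 0.05, namely RRM2, MCM5, CKS2, BUB1B, BIRC5 and SMC4, where 10.3% of all probe sets were higher and 11.3% lower at that p. In Brahman skin 1 of the 35 passed, the condensin gene SMC4, which fell, where 19.8% of all probe sets passed (9.54% higher and 10.2% lower). At an unadjusted p under 0.05 CCNA2 was higher there and SMC4 lower, where 17.7% of all probe sets were higher and 17% lower. Averaged over the breeds SMC4, RRM2 and MCM5 fell and none rose, 3 of 35 where 27.9% of all probe sets passed (13.6% higher and 14.2% lower). By the probe set used, the other 32 genes passed in none of the 6 comparisons made. Other probe sets of some of them did pass, as given below.

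**Figure D1:**
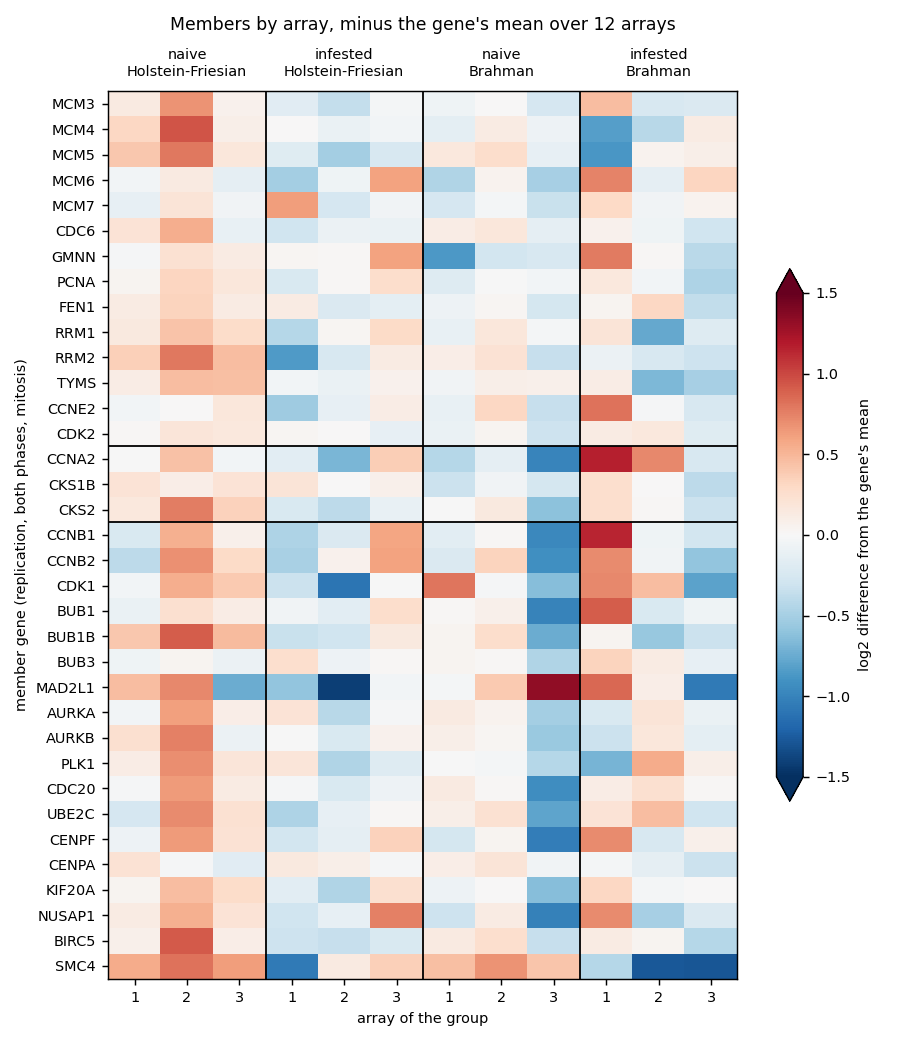
Signal of each of the 35 measured genes (rows, ordered by role) in the 12 arrays (columns, by group), as the log2 difference from the gene's mean over the 12 arrays (colour). Naive Holstein-Friesian 2 is high and naive Brahman 3 is low over most rows, and SMC4 is lowest in the 3 infested Brahman arrays and infested Holstein-Friesian 1.

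The differences lay mostly below 0 in Holstein-Friesian and mostly above 0 in Brahman animals. In Holstein-Friesian animals the median log2 difference of the genes, infested minus naive, was -0.32 (from -0.86 to 0.11), with 30 of 35 below 0. Over all probe sets the median was -0.03 with 53.9% below 0. In Brahman animals the median was 0.14 (from -1.50 to 1.06), with 23 above 0 and 12 below. Over all probe sets it was 0.04, with 46% below 0. Taking the mean difference of each array from the naive arrays over the 35 genes, the naive Holstein-Friesian arrays stood at 0.02, 0.44 and 0.07 and the infested ones at -0.25, -0.31 and 0.07. The naive Brahman arrays stood at -0.12, 0.05 and -0.47 and the infested ones at 0.19, -0.12 and -0.33. On this level over all 35 genes the groups overlapped in both breeds, in Holstein-Friesian through infested array 3, which stood level with naive array 3. For 9 of 35 genes every infested Holstein-Friesian array was below every naive one, where 16% of all probe sets did so, and for 0 every infested array was higher. These were MCM3, MCM4, MCM5, RRM2, TYMS, BUB1B, BIRC5, SMC4 and CKS2. In Brahman animals SMC4 alone showed this, where 19.3% of all probe sets did.

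**Figure D2:**
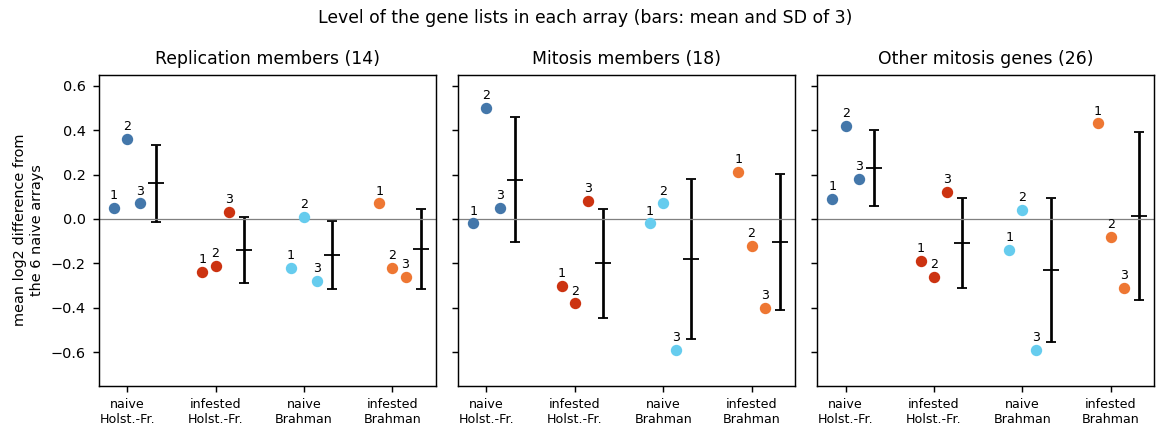
Mean log2 difference from the 6 naive arrays over the 14 replication genes, the 18 mitosis genes and 26 further mitosis genes, for each array (points, numbered by replicate) with the group mean and SD of 3 arrays (bars). In each panel naive Holstein-Friesian 2 is the highest naive array and naive Brahman 3 the lowest, and the infested arrays lie within the range of the naive ones, except infested Brahman 1 at 0.43 in the third panel, where the highest naive array is at 0.42.

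The replication and the mitosis genes gave like group levels. The replication genes stood at 0.16 ± 0.17 (SD, n = 3) in naive and -0.14 ± 0.15 in infested Holstein-Friesian animals, and at -0.16 ± 0.15 and -0.14 ± 0.18 in naive and infested Brahman animals. The mitosis genes stood at 0.18 ± 0.28 and -0.20 ± 0.25 in the Holstein-Friesian groups and at -0.18 ± 0.36 and -0.10 ± 0.31 in the Brahman groups. The groups overlapped for both sets in Brahman animals and for the mitosis genes in Holstein-Friesian animals. For the replication genes the Holstein-Friesian groups came to 0.05 in the lowest naive and 0.03 in the highest infested array. The difference of the 2 sets within an array, replication minus mitosis, was 0.07, -0.14 and 0.02 in naive Holstein-Friesian and 0.06, 0.17 and -0.05 in infested Holstein-Friesian animals. It was -0.20, -0.06 and 0.31 in naive and -0.14, -0.10 and 0.14 in infested Brahman animals. Neither breed separated naive from infested arrays on this difference. Mitosis genes varied more between animals of a group, with a median residual SD of 0.42 against 0.30 for replication genes and 0.26 over all probe sets.

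Single animals stood out over most of the genes. Naive Holstein-Friesian 2 was the highest of its group for 32 of the 35 genes (32.4% of all probe sets) and the highest of all 12 arrays for 20 (8.09% of all probe sets). Naive Brahman 3 was the lowest of its group for 28 genes (35.8% of all probe sets) and the lowest of the 12 for 16 (10.7%). Within its group it was the lowest for 17 of 18 mitosis genes and 9 of 14 replication genes. MAD2L1, the checkpoint gene, went the other way in that array. Infested Brahman 1 was the highest of its group for 26 genes, but it was also so for 48% of all probe sets. Without naive Holstein-Friesian 2 the median difference of the genes in Holstein-Friesian animals was -0.18, and without naive Brahman 3 that in Brahman animals was -0.01. RNA integrity of these 2 naive arrays was within the range of the naive arrays, at -0.82 and -0.92.

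Among the genes that license and unwind replication origins, MCM5, a subunit of the MCM helicase, was the one that passed. It gave 7.71, 8.10 and 7.47 in naive and 7.12, 6.80 and 7.06 in infested Holstein-Friesian arrays. It gave 7.46, 7.57 and 7.18 in naive and 6.43, 7.36 and 7.39 in infested Brahman arrays. The Holstein-Friesian groups did not overlap, and in Brahman animals only infested array 1, the array of lowest RNA integrity, was below all naive ones. The difference was -0.76 ± 0.26 (SE) in Holstein-Friesian (adjusted p = 0.113) and -0.34 ± 0.26 in Brahman animals (adjusted p = 0.37). Averaged over the breeds MCM5 fell by 0.55 ± 0.18 on the log2 scale, 1.47-fold (adjusted p = 0.0429). With the replicate number as a block it did not pass (adjusted p = 0.054), nor with each array centred on its median (-0.48, adjusted p = 0.0603) or after cyclic loess (-0.51, adjusted p = 0.061). With the RNA index as a covariate the difference was -0.27 (adjusted p = 0.416).

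By the probe sets used, the other helicase subunits did not pass. MCM3 and MCM4 had differences of -0.47 ± 0.22 and -0.49 ± 0.25 in Holstein-Friesian animals, where neither overlapped between groups, and of 0.10 ± 0.22 and -0.33 ± 0.25 in Brahman animals. MCM6 gave 9.03, 9.20 and 8.93 in naive and 8.56, 9.01 and 9.67 in infested Holstein-Friesian arrays, and 8.62, 9.12 and 8.57 in naive and 9.81, 8.93 and 9.39 in infested Brahman arrays. The infested animals of both breeds were spread more widely than the naive ones, and the groups overlapped. The Brahman difference of MCM6 was 0.60 ± 0.29 (adjusted p = 0.165). MCM7 differed by 0.10 ± 0.21 and 0.31 ± 0.21 in Holstein-Friesian and Brahman animals. The loading factor CDC6 differed by -0.38 ± 0.18 and -0.15 ± 0.18, and GMNN, whose product geminin stops repeated licensing, by 0.11 ± 0.29 and 0.58 ± 0.29.

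RRM2, the small subunit of ribonucleotide reductase, which makes deoxynucleotides, gave 9.16, 9.60 and 9.27 in naive and 7.96, 8.57 and 8.93 in infested Holstein-Friesian arrays. In Brahman animals it gave 8.90, 9.02 and 8.46 in naive and 8.72, 8.57 and 8.50 in infested arrays. Every infested Holstein-Friesian array was below every naive one, and the Brahman groups overlapped. The difference was -0.86 ± 0.24 (adjusted p = 0.0637) in Holstein-Friesian and -0.20 ± 0.24 (adjusted p = 0.586) in Brahman animals. RRM2 fell by 0.53 ± 0.17 averaged over the breeds, 1.44-fold (adjusted p = 0.0382), but not with each array centred on its median (-0.46, adjusted p = 0.059) or with the RNA index as a covariate (-0.41, adjusted p = 0.239). RRM2 and MCM5 passed in Holstein-Friesian animals when infested Brahman 1 was left out (adjusted p = 0.0471 and 0.0233), an array that enters that comparison only through the pooled spread.

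The large reductase subunit gene RRM1 differed by -0.32 ± 0.24 in Holstein-Friesian and -0.26 ± 0.24 in Brahman animals. TYMS, the thymidylate synthase gene, differed by a like amount in both breeds, -0.36 ± 0.19 and -0.39 ± 0.19, and missed the threshold over the breeds (-0.38 ± 0.14, adjusted p = 0.0599). PCNA, the clamp, ran from 9.51 to 10.30 over the 12 arrays and differed by -0.16 ± 0.18 and -0.03 ± 0.18. FEN1, the flap endonuclease of lagging strand synthesis, differed by -0.28 ± 0.18 and 0.09 ± 0.18. The S phase kinase CDK2 and its cyclin CCNE2 differed by -0.15 ± 0.14 and -0.23 ± 0.27 in Holstein-Friesian and by 0.15 ± 0.14 and 0.23 ± 0.27 in Brahman animals. None of these 6 genes passed in a comparison.

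**Figure D3:**
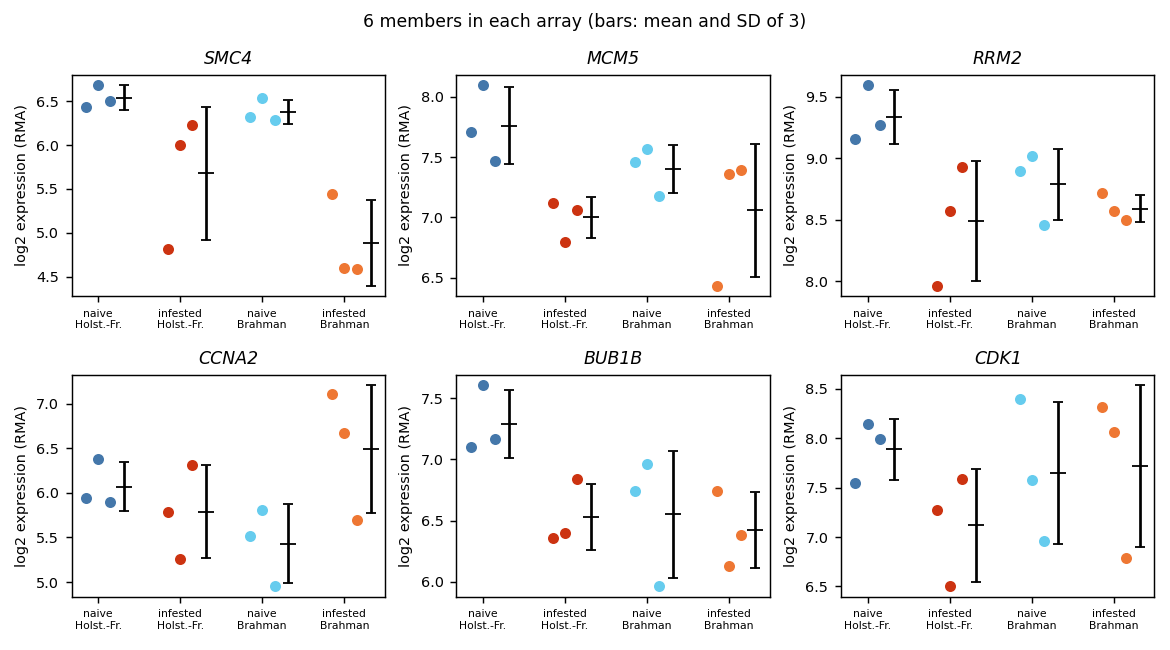
Log2 signal of single genes in each array (points) with the group mean and SD of 3 arrays (bars), for SMC4, MCM5 and RRM2, which passed in a comparison, and CCNA2, BUB1B and CDK1, which did not. SMC4 is below every naive array in all 6 infested arrays, while CCNA2 and CDK1 spread over their groups.

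Of the mitosis genes SMC4, a core ATPase of the condensin complexes, was the one that passed within a breed. Its probe set with the highest mean gave 6.43, 6.69 and 6.50 in naive and 4.81, 6.00 and 6.23 in infested Holstein-Friesian arrays. The naive Brahman arrays gave 6.32, 6.54 and 6.29 and the infested ones 5.44, 4.60 and 4.59. All 6 infested arrays were below all 6 naive ones, and the 3 infested Brahman arrays and infested Holstein-Friesian 1, the arrays of low RNA integrity, were the lowest of the 12. SMC4 fell by 1.50 ± 0.34 in Brahman animals, 2.83-fold (adjusted p = 0.0122), whichever array was left out (from -1.79 to -1.36). With the RNA index as a covariate the difference was -1.48 and did not pass (adjusted p = 0.104). In Holstein-Friesian animals it was -0.86 ± 0.34 (adjusted p = 0.166), and averaged over the breeds SMC4 fell by 1.18 ± 0.24 (adjusted p = 0.00494). The difference between the breeds in this effect was -0.64 ± 0.48 and did not pass (adjusted p = 0.73). It did so without the 2 arrays of lowest index, infested Holstein-Friesian 1 and infested Brahman 1 (-1.36, adjusted p = 0.00865).

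SMC4 had 3 probe sets. Another, with a mean of 4.04, fell by 0.83 in both breeds (adjusted p = 0.027 in Holstein-Friesian and 0.01 in Brahman animals). It gave 4.44, 4.53 and 4.45 in naive and 3.60, 3.76 and 3.59 in infested Holstein-Friesian arrays. The remaining one, with a mean of 3.97, differed by -0.08 and 0.25 and did not pass. All 3 had a mean below the 40 percent quantile of signal.

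The spindle checkpoint genes did not pass. BUB1B, which encodes the checkpoint kinase BubR1, gave 7.10, 7.61 and 7.17 in naive and 6.36, 6.40 and 6.84 in infested Holstein-Friesian arrays, with no overlap. It gave 6.74, 6.96 and 5.96 in naive and 6.74, 6.13 and 6.38 in infested Brahman arrays, where the groups overlapped. The differences were -0.76 ± 0.27 (adjusted p = 0.127) and -0.14 ± 0.27. MAD2L1 gave 8.55, 8.81 and 7.34 in naive and 7.49, 6.67 and 8.04 in infested Holstein-Friesian arrays, and 8.06, 8.48 and 9.41 in naive and 8.95, 8.19 and 7.03 in infested Brahman arrays. The naive and infested groups of MAD2L1 overlapped in both breeds, and so did the breeds among naive and among infested animals. Its SE of 0.56 was the highest of the 35 genes. BUB1 and BUB3 differed by -0.06 ± 0.33 and 0.10 ± 0.17 in Holstein-Friesian and by 0.50 ± 0.33 and 0.24 ± 0.17 in Brahman animals.

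CDK1, the mitotic kinase, gave 7.55, 8.14 and 7.99 in naive and 7.27, 6.50 and 7.59 in infested Holstein-Friesian arrays. It gave 8.40, 7.58 and 6.96 in naive and 8.32, 8.06 and 6.79 in infested Brahman arrays. In each Brahman group 1 array was more than 1 log2 below another, and the difference there was 0.08 ± 0.45, against -0.77 ± 0.45 (adjusted p = 0.356) in Holstein-Friesian animals. Its cyclin CCNB1 gave 6.42, 7.18 and 6.73 in naive and 6.19, 6.44 and 7.25 in infested Holstein-Friesian arrays, and 6.49, 6.67 and 5.69 in naive and 7.80, 6.59 and 6.38 in infested Brahman arrays. CCNB1 differed by 0.64 ± 0.41 in Brahman animals (adjusted p = 0.293), with infested array 1 above and naive array 3 below the rest, and by -0.15 ± 0.41 in Holstein-Friesian animals. CCNB2 differed by -0.13 ± 0.42 and 0.29 ± 0.42.

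BIRC5, the survivin gene of the chromosomal passenger complex, gave 8.23, 9.07 and 8.25 in naive and 7.84, 7.81 and 7.93 in infested Holstein-Friesian arrays. The infested arrays lay close together and below all naive ones, of which array 2 was far above the others. The difference was -0.65 ± 0.25 (adjusted p = 0.152), and in Brahman animals, at 8.29, 8.41 and 7.81 in naive and 8.28, 8.20 and 7.72 in infested arrays, it was -0.10 ± 0.25. The kinase of the same complex, AURKB, differed by -0.36 ± 0.24 and 0.05 ± 0.24, and its relative AURKA by -0.30 ± 0.24 and 0.06 ± 0.24. The mitotic kinase PLK1 differed by -0.49 ± 0.30 and 0.14 ± 0.30. Among the factors of the anaphase-promoting complex, CDC20 differed by -0.36 ± 0.26 and 0.38 ± 0.26 and UBE2C by -0.42 ± 0.32 and 0.28 ± 0.32.

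CENPF, a kinetochore protein gene, gave 8.20, 8.92 and 8.50 in naive and 8.00, 8.14 and 8.63 in infested Holstein-Friesian arrays. It gave 8.01, 8.32 and 7.24 in naive and 8.99, 8.04 and 8.36 in infested Brahman arrays, a difference of 0.60 ± 0.32 (adjusted p = 0.209). The groups overlapped in both breeds. CENPA, the centromeric histone gene, ran from 4.48 to 5.02 and differed by 0.06 ± 0.14 and -0.24 ± 0.14. The kinesin gene KIF20A and the spindle gene NUSAP1 differed by -0.38 ± 0.22 and -0.17 ± 0.38 in Holstein-Friesian and by 0.33 ± 0.22 and 0.40 ± 0.38 in Brahman animals.

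Of the 3 genes used in both phases, CCNA2, the cyclin of S phase and mitotic entry, had the largest Brahman difference above 0. It gave 5.52, 5.81 and 4.95 in naive and 7.11, 6.67 and 5.70 in infested Brahman arrays, and 5.94, 6.38 and 5.90 in naive and 5.79, 5.26 and 6.31 in infested Holstein-Friesian arrays. Infested Brahman 3 lay below naive Brahman 2, and the other infested Brahman arrays lay above all naive ones. The difference was 1.06 ± 0.37 in Brahman animals (adjusted p = 0.0659), and 1.46 without infested Brahman 3, when it passed (adjusted p = 0.017). Without infested Brahman 1 or without naive Brahman 3 the difference was smaller than with all arrays. With the RNA index as a covariate the Brahman difference was 0.44 (adjusted p = 0.648). CKS2, a small subunit that binds CDK1, gave 8.88, 9.50 and 9.07 in naive and 8.50, 8.34 and 8.62 in infested Holstein-Friesian arrays, with no overlap. It gave 8.72, 8.87 and 8.11 in naive and 8.98, 8.74 and 8.40 in infested Brahman arrays, and differed by -0.66 ± 0.23 (adjusted p = 0.126) and 0.14 ± 0.23. Its relative CKS1B differed by -0.08 ± 0.16 and 0.16 ± 0.16.

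**Figure D4:**
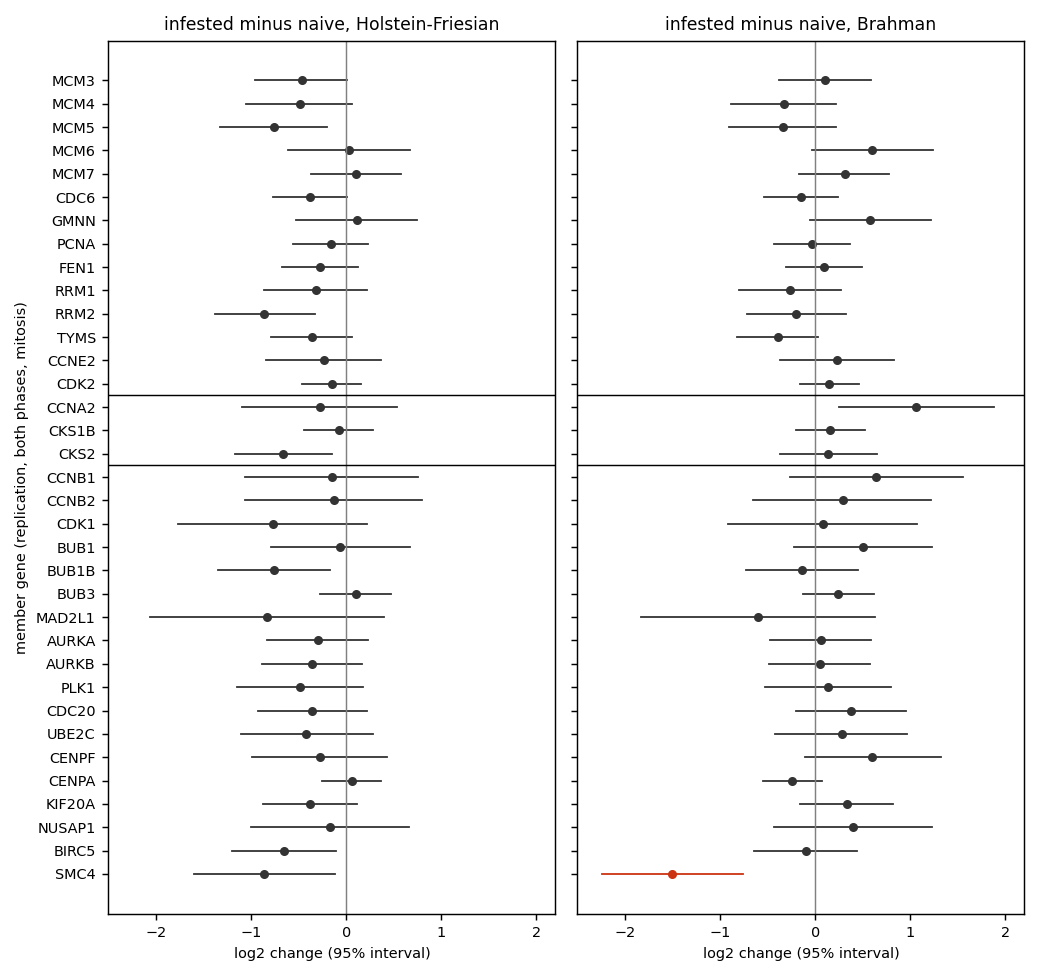
Log2 difference of each of the 35 genes, infested minus naive, in Holstein-Friesian and in Brahman animals, with 95% intervals (lines), ordered by role; red marks an adjusted p under 0.05. In Holstein-Friesian animals 30 of 35 lie below 0 and in Brahman animals 23 lie above 0, and most intervals include 0.

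The 95% intervals of these differences had a median half-width of 0.56 log2. In Holstein-Friesian animals they excluded a 2-fold rise for all 35 genes and a 2-fold fall for 20. In Brahman animals they excluded a 2-fold rise for 26 and a 2-fold fall for 33. Both limits held for 20 genes in Holstein-Friesian and 24 in Brahman animals, and for the rest a 2-fold change lay within the interval.

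The breeds were next compared in their response. The difference between the breeds in the infestation effect, Brahman minus Holstein-Friesian, was above 0 for 32 of the 35 genes, with a median of 0.46. Over all probe sets the median was 0.05, with 44.2% below 0. None passed, against 0.00416% of all probe sets, and 3 were higher at an unadjusted p under 0.05, namely CCNA2 (1.35 ± 0.53, adjusted p = 0.657), CKS2 (0.80 ± 0.33, adjusted p = 0.657) and KIF20A (0.71 ± 0.31, adjusted p = 0.662). At that p 4.03% of all probe sets were higher and 3.43% lower. The replication genes had a median of 0.33 and the mitosis genes one of 0.57.

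Among naive animals, 33 of the 35 genes had a lower mean in Brahman than in Holstein-Friesian skin, with a median difference of -0.38. Over all probe sets the median was 0, with 49.4% below 0. None passed, where 0.025% of all probe sets did (0.0125% in each direction), and 5 were lower and 0 higher at an unadjusted p under 0.05, where 2.26% and 2.52% of all probe sets were. For 12 of 35 genes every naive Brahman array was below every naive Holstein-Friesian one, where 7.21% of all probe sets did so. They were MCM3, GMNN, PCNA, FEN1, RRM2 and TYMS of replication, BUB1B, PLK1 and KIF20A of mitosis, and CCNA2, CKS1B and CKS2. The means of all 14 replication genes lay lower (median -0.29) and those of 16 of 18 mitosis genes did (median -0.42). BUB1B and CKS2 differed by -0.74 ± 0.27 (adjusted p = 0.819) and -0.58 ± 0.23 (adjusted p = 0.897). Without naive Holstein-Friesian 2 the median of the 35 genes was -0.21, and without naive Brahman 3 that of the mitosis genes was -0.15. The naive breeds also differed in age, 12 against 18 months, which cannot be told apart from breed. This contrast shares its naive arrays with the comparison of the responses above, so the 2 are not independent.

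Among infested animals of the same age the genes were near level between the breeds. The median of Brahman minus Holstein-Friesian was 0.07, with 22 genes above 0 and 13 below. Over all probe sets it was 0.05, with 42.5% below 0. None passed, where 0.167% of all probe sets did (0.125% higher and 0.0416% lower), and 1 was lower and 0 higher at an unadjusted p under 0.05, namely SMC4 (-0.80 ± 0.34, adjusted p = 0.358), where 5.3% and 7.68% of all probe sets were. CDC20 was higher without overlap in infested Brahman arrays and CENPA lower, where 9.24% and 4.16% of all probe sets were.

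The mean effect of infestation over the breeds uses the same 12 arrays as the comparisons above. The median of the 35 genes was -0.09, with 23 below 0, and over all probe sets it was 0, with 49.4% below 0. SMC4 kept its call whichever array was left out (from -1.32 to -0.96). RRM2 passed in 3 and MCM5 in 4 of the 12 such fits, each with a range from -0.64 to -0.40. SMC4 was the single gene that passed without naive Holstein-Friesian 1 or 2, naive Brahman 1 or 2, or infested Holstein-Friesian 1 or 2.

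Other genes of the same pathways, listed by function, were read from the same fit. In Holstein-Friesian animals 3 of 37 further replication genes, 1 of 27 regulators and 0 of 26 further mitosis genes passed, where 5.02% of all probe sets did. At an unadjusted p under 0.05, 4 of these 26 mitosis genes were lower and 0 higher, where 11.3% and 10.3% of all probe sets were. In Brahman animals 7, 5 and 5 passed, which is 18.9%, 18.5% and 19.2% of each list and close to the 19.8% of all probe sets. Averaged over the breeds 10, 9 and 3 passed, which is 27%, 33.3% and 11.5% of each list, where 27.9% of all probe sets did. None passed in the test between the breeds, where 7, 3 and 7 were higher and 0, 2 and 0 lower at an unadjusted p under 0.05 (4.03% and 3.43% of all probe sets). Among naive animals none passed either, and 1, 0 and 0 were higher and 3, 1 and 4 lower at that p (2.52% and 2.26% of all probe sets).

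The clearest of these was GADD45A, a stress-induced gene whose product halts the cycle at the G2 to M boundary. It gave 6.41, 6.10 and 6.16 in naive and 7.29, 8.10 and 7.74 in infested Holstein-Friesian arrays, and 5.92, 5.95 and 5.76 in naive and 6.58, 6.96 and 6.99 in infested Brahman arrays. All 6 infested arrays were above all 6 naive ones. GADD45A rose by 1.49 ± 0.20 in Holstein-Friesian (adjusted p = 0.00615) and by 0.96 ± 0.20 in Brahman animals (adjusted p = 0.00943), 2.80-fold and 1.95-fold, and passed under each alternative run in both breeds.

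WEE1, the kinase that holds CDK1 inactive, gave 8.66, 8.93 and 9.08 in naive and 7.01, 7.43 and 7.63 in infested Brahman arrays, with no overlap. It fell by 1.53 ± 0.29, 2.90-fold (adjusted p = 0.00594), and in Holstein-Friesian animals differed by -0.49 (adjusted p = 0.367). LIN52, a subunit of the DREAM and MuvB complexes that switch cell cycle genes off and on, gave 6.12, 6.10 and 5.96 in naive and 8.29, 7.93 and 6.98 in infested Brahman arrays. It rose by 1.67 ± 0.28, 3.19-fold (adjusted p = 0.00344), and in Holstein-Friesian animals differed by 0.63 (adjusted p = 0.216). CHEK1, a kinase of the DNA damage checkpoint, rose by 1.13 ± 0.27 in Brahman animals (adjusted p = 0.015), but did not pass without naive Brahman 1 (1.06) or naive Brahman 3 (0.98). In Holstein-Friesian animals CHEK1 differed by 0.25 (adjusted p = 0.641), and naive Brahman minus naive Holstein-Friesian was -0.75 (adjusted p = 0.787). The D-type cyclin gene CCND3 fell in Brahman animals by 1.09 (adjusted p = 0.0447). Averaged over the breeds 6 regulators rose, with CDKN1C at 0.54 the fourth of them by size, and WEE1, CCND3 and TFDP1 fell, TFDP1 by 0.40. Of the 12 fits that each left out 1 array, TFDP1 passed in 1, CCND3 in 2, RB1 in 3 and CDKN1C in 4. With the RNA index as a covariate the Brahman differences of WEE1 and LIN52 were -0.79 and 0.92 and did not pass. The index separates naive from infested Brahman arrays, so the lost calls cannot be put down to RNA integrity or to infestation.

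Of the further replication genes, RFC2, a subunit of the clamp loader, gave 6.78, 6.60 and 6.66 in naive and 8.45, 7.95 and 7.69 in infested Brahman arrays. It rose by 1.35 ± 0.21, 2.55-fold (adjusted p = 0.00253), and passed in each alternative run, with 0.74 under the RNA index as a covariate. In Holstein-Friesian animals its difference was 0.59 (adjusted p = 0.131). CDT1, which loads the MCM helicase with CDC6, gave 7.78, 8.11 and 7.38 in naive and 6.77, 6.33 and 6.62 in infested Holstein-Friesian arrays and fell by 1.18 ± 0.23 (adjusted p = 0.0201). It did not pass there without naive Holstein-Friesian 1 or 2 or infested Holstein-Friesian 2 or 3 (from -1.21 to -1.01), and its other probe set differed by -0.25. The origin recognition genes ORC3 and ORC6 fell in Brahman animals by 1.02 and 0.88 (adjusted p = 0.0171 and 0.0193). In Holstein-Friesian animals they differed by -0.80 and -0.44 (adjusted p = 0.0907 and 0.28). There ORC5 fell by 0.58 (adjusted p = 0.039), and its probe sets ran from -0.58 to 0.08. RNASEH2A, which removes RNA from DNA, fell by 1.13 in Brahman animals (adjusted p = 0.0401). POLE2, RPA2 and POLD3 rose in Brahman animals by 0.60, 0.94 and 0.81, and POLD3 rose in Holstein-Friesian animals by 0.78 ± 0.17 (adjusted p = 0.0293). For RPA2 and POLD3 another probe set of the gene lay below 0, at -1.36 and -0.75 in Brahman animals. Averaged over the breeds LIG1, the ligase of lagging strand synthesis, fell by 0.79, and POLE3 rose by 0.37. Neither passed with the RNA index as a covariate (adjusted p = 0.172 and 0.177), and POLE3 passed in 4 and LIG1 in 9 of the 12 fits that left out 1 array.

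Among the further mitosis genes, STMN1, which destabilises microtubules, gave 10.71, 10.63 and 10.39 in naive and 11.67, 11.47 and 11.16 in infested Brahman arrays. It rose by 0.86 ± 0.16 (adjusted p = 0.00522), and with the RNA index as a covariate the difference was 0.64 and did not pass (adjusted p = 0.0978). In Holstein-Friesian animals STMN1 differed by 0.15 (adjusted p = 0.628). Naive Brahman minus naive Holstein-Friesian was -0.80 for STMN1 (adjusted p = 0.203). CDCA8 of the passenger complex, CDCA2 and the condensin gene NCAPH rose by 1.20, 0.94 and 0.59 (adjusted p = 0.0369, 0.0431 and 0.0436), and the kinetochore gene ZWINT fell by 0.99 (adjusted p = 0.028). The other CDCA8 probe set differed by -0.20, and the NCAPH probe sets ran from -0.08 to 0.59. HMMR, a spindle gene, fell by 0.58 averaged over the breeds. Several of these calls were narrow: of the 12 fits that each left out 1 array, CCND3 passed in 2, RNASEH2A, CDCA2 and NCAPH in 3, CDCA8 in 5, POLE2 in 6, ORC6 in 7, ZWINT in 8 and ORC3 in 9 in Brahman animals. In Holstein-Friesian animals ORC5 passed in 4 and POLD3 in 7. Of the 17 pathway calls in Brahman animals 7 held whichever array was left out and 4 with the RNA index as a covariate. Of the 4 in Holstein-Friesian animals 1 held whichever array was left out, GADD45A, and all 4 with the index. Of the 22 averaged over the breeds 14 held whichever array was left out and 11 with the index. Among naive animals 25 of these 26 mitosis genes had a lower mean in Brahman skin (median -0.45), where 49.4% of all probe sets did.

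**Figure D5:**
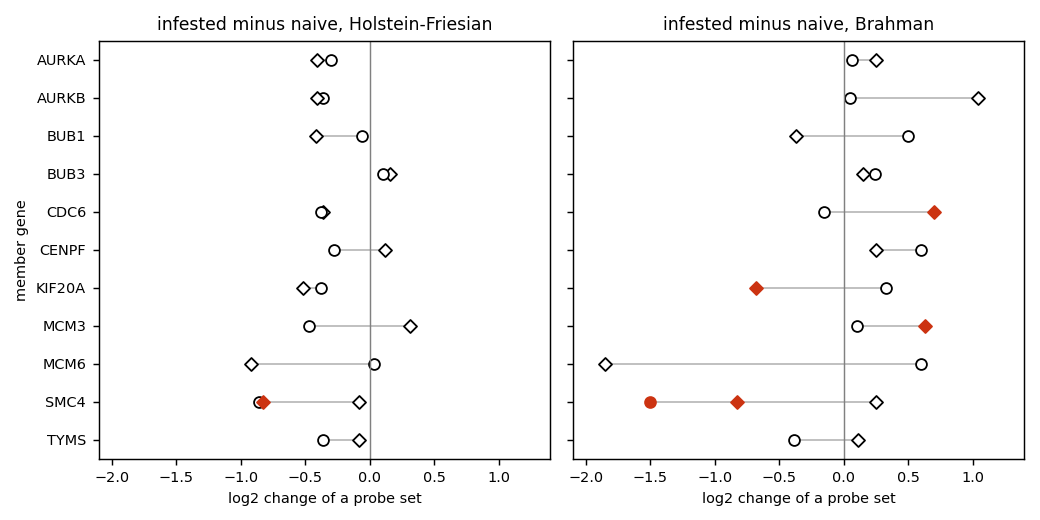
Log2 difference, infested minus naive, of each probe set of the 11 genes with several probe sets, in Holstein-Friesian and Brahman animals. Circles mark the probe set used for the gene, diamonds the others, and a red fill an adjusted p under 0.05. Probe sets of SMC4, MCM6 and KIF20A lie far apart.

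Which probe set stands for a gene mattered. Of the 35 genes 24 had 1 probe set and 11 had several, and for 6 of these 11 the Brahman differences of the probe sets were of both signs, namely MCM6, CDC6, TYMS, BUB1, KIF20A and SMC4. Besides the SMC4 set used, 4 other probe sets of lower signal passed in Brahman animals. Another set of the kinesin gene KIF20A fell by 0.68 (adjusted p = 0.0108), where the one used differed by 0.33. Another set of MCM3 rose by 0.63 (adjusted p = 0.00916) and one of CDC6 by 0.70 (adjusted p = 0.0202), where those used differed by 0.10 and -0.15. The fourth was the SMC4 set described above. The other MCM6 set gave 6.41, 6.97 and 6.62 in naive and 4.89, 4.64 and 4.91 in infested Brahman arrays and, in infested Holstein-Friesian arrays, 4.16, 6.77 and 7.19. It was low in the 4 arrays of lowest RNA integrity and at the naive level in the other 2 infested ones. Its Brahman difference was -1.85 (adjusted p = 0.0544), against 0.60 for the MCM6 set used. Averaged over the breeds the other sets of MCM6 and KIF20A differed by -1.39 and -0.60 (adjusted p = 0.0345 and 0.00243). The other MCM3 set rose there by 0.47 (adjusted p = 0.00457).

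Cell type markers were read in the same groups. Of all probe sets 2.68% passed higher and 2.34% lower in Holstein-Friesian animals, and 9.54% and 10.2% in Brahman animals. At an unadjusted p under 0.05 these shares were 10.3% and 11.3%, and 17.7% and 17%. The macrophage list, with 8 of 9 markers measured, ran from -0.56 to 0.59 in naive and 1.64 to 1.86 in infested Holstein-Friesian arrays, and from -0.28 to 0.29 and 1.13 to 1.59 in the Brahman groups. Of the 8, 6 rose in Holstein-Friesian and 4 in Brahman animals. All 7 fibroblast markers were measured. The list ran from 0.07 to 0.39 and 0.65 to 0.79 in naive and infested Holstein-Friesian arrays, with 2 markers higher. It ran from -0.31 to -0.10 and 0.78 to 1.10 in naive and infested Brahman arrays, with 6 markers higher. PDGFRB differed by -0.54 (adjusted p = 0.058) and -0.23, and fell averaged over the breeds (-0.39, adjusted p = 0.0186). COL1A1 differed by -0.04 in Holstein-Friesian animals. The basal keratinocyte list, with 6 of 9 markers, ran from -0.09 to 0.05 and -0.32 to 0.03 in the Holstein-Friesian groups. There 0 markers passed (1 higher and 1 lower at an unadjusted p under 0.05). It ran from -0.11 to 0.17 in naive Brahman arrays, and infested Brahman 1, 2 and 3 stood at -0.84, -0.17 and -0.07. Infested Brahman 1 is the array of lowest RNA integrity. In Brahman animals 5 of the 6 markers differed below 0 and 1 passed, ITGB4 (-1.35). KRT5 and KRT14 differed there by -0.06 and 0.01. Of the hair follicle list 5 of 16 markers were measured and 0 passed in either breed, with 1 and 2 higher and 1 and 1 lower at an unadjusted p under 0.05. Of the B and plasma cell list 4 of 9 markers were measured, and it ran from -0.16 to 0.01 and 0.82 to 1.45 in the Holstein-Friesian groups, where 2 rose, and from -0.15 to 0.53 and -0.21 to 1.08 in the Brahman groups, where 0 passed or had an unadjusted p under 0.05. Of 9 T cell markers 2 rose in Brahman animals, CD8A and LCK, and another LCK probe set differed by -0.61. The Brahman differences of the 9 lay above 0 for 5 and below 0 for 4. The T cell list ran from -0.01 to 0.66 in naive and 0.09 to 0.93 in infested Brahman arrays, which overlapped. It ran from -0.39 to 0.04 and 0.09 to 0.47 in the Holstein-Friesian groups. There 0 T cell markers passed, and 3 were higher at an unadjusted p under 0.05. Naive Brahman 3, low in most cell cycle genes, was at 0.66 for the T cell list, -1.30 for 3 of 6 neutrophil markers and 1.52 for 7 of 8 skeletal muscle markers. The other naive Brahman arrays were at 0.03 and -0.01, 0.35 and 0.02, and -1.06 and 1.11 for these lists. The 3 neutrophil markers measured were S100A8, S100A9 and S100A12. S100A8 stood at 12.43 to 14.11 in the 6 naive arrays, near the signal of KRT5. Whether these 3 genes read neutrophils in whole skin was not tested. Their median difference, infested minus naive, was -0.68 in Holstein-Friesian and -0.90 in Brahman animals, and 0 passed. The part of these cells in the levels of the cell cycle genes was not tested.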

How the data were processed

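Gene expression was measured in whole skin of 12 cattle, 1 array each. The authors deposited log2 signals, 1 for each probe set of an array. Per the submitters' processing notes these were made with RMA, the robust multi-array average. Which RMA software and chip definition were used is not given in the sources used here, and the log2 scale was inferred from the values. Array medians lay between 6.576 and 6.729. The 112 control probe sets were left out, and the other 24016 were tested with no filter. Gene symbols came from the platform annotation. No detection calls were used, so it is unknown how far a signal lies above background. The precision is limited by the number of arrays. The labels record no batch. Any 2 arrays shared at most 0.104% of values.

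A linear model with a mean for each of the 4 groups was fitted to all 12 arrays with limma 3.58.1 (R 4.3.3; lmFit and eBayes, 8 residual and 3.03 prior degrees of freedom). There were 6 comparisons, and for each the two-sided p-values were adjusted over all probe sets by Benjamini-Hochberg (threshold 0.05). The procedure was tested on simulated data. The genes, the lists and the comparisons were chosen with earlier results of these data known. Values in every array are given for genes that passed and, to 12 in all, for those with the next largest difference in either breed. Of the pathway lists up to 4 per list, comparison and direction are named by size.

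Replicate numbers were shared by the groups. Same-numbered naive and infested Holstein-Friesian arrays deviated together from their group means (correlations of 0.113 to 0.249), each most like its own number. No label explains this, since the animals were separate and of different age. In no other pair of groups did all 3 correlations exceed 0.1. The replicate block was an alternative, as were scaling, filter, prior, array weights, RNA integrity, choice of probe set and leaving out each array.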

Additional observations from a re-analysis of the deposited data

How the results depend on the processing

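In all 23 alternatives were run, 12 of them leaving out 1 array. The counts of genes past the threshold below are not set beside the share of all probe sets passing in the same setting. They therefore describe the setting and not these genes in particular. Leaving out 1 array gave 0 to 2 genes past the threshold in Holstein-Friesian animals, 1 to 2 in Brahman animals, 0 in the test between the breeds and among naive animals, 0 to 1 between infested animals and 1 to 4 averaged over the breeds. The median difference of the 35 genes then ran from -0.46 to -0.18 in Holstein-Friesian animals, from -0.01 to 0.27 in Brahman animals, from 0.30 to 0.64 between the breeds' effects, from -0.47 to -0.21 among naive animals, from -0.02 to 0.17 among infested animals and from -0.16 to -0.01 averaged over the breeds.

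With array weights 1 gene passed in Holstein-Friesian animals, 3 in Brahman animals, 1 between infested animals and 7 averaged over the breeds, and the median difference between the breeds' effects was 0.18. Without the 2 arrays of lowest RNA integrity 1 gene passed in Holstein-Friesian animals (MCM5), 2 in Brahman animals, 1 in the test between the breeds (SMC4) and 1 between infested animals (SMC4). In Brahman animals 0 passed with the low-signal filter, which removes the SMC4 probe set, and 0 with the RNA index as a covariate. Averaged over the breeds 1 passed with each array centred on its median. With a gene's probe sets averaged 1 passed in Holstein-Friesian animals (SMC4, -0.59, adjusted p = 0.0415). In that setting POLD3 and RPA2 turned to -0.12 and -0.21 in Brahman animals and to -0.01 and -0.20 averaged over the breeds, because another of their probe sets lay below 0. Calls were also lost there for ORC5 and POLD3 in Holstein-Friesian animals, CDCA8 and NCAPH in Brahman animals and CDKN1C averaged over the breeds. Where none is stated, the cause was not tested.

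With the replicate number as a block 0 genes passed in Holstein-Friesian animals and 1 in Brahman animals, as without it, and 2 averaged over the breeds, where MCM5 lost its call. Of the pathway genes POLE2, RNASEH2A, CCND3 and CDCA2 lost their Brahman calls with the block, and CCND3, RB1 and TFDP1 theirs averaged over the breeds. In the 6 Holstein-Friesian arrays alone, an alternative chosen after seeing the data, the block gave 0 of the 35 genes, and ORC5 lost its call. The 95% intervals of the 35 genes had a median half-width of 0.56 log2 within a breed and 0.39 averaged over the breeds, which limits the changes that 3 arrays a group can show.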
